A study of Rattus norvegicus with 12 samples.

Results

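The miR-34 and miR-449 family was followed in rat liver through every annotated gene of the deposited table named miR-34 or miR-449, whatever its letter or copy suffix. The rule took 5 of 444 features: Mir34a, Mir34b, Mir34c, Mir449a and Mir449c. Livers came from male Sprague-Dawley rats, an outbred stock, dosed by mouth on 5 consecutive days from 7 weeks of age and sampled 1 h after the last dose. Control rats received sterile distilled water, CAF rats caffeine at 120 mg/kg, DEX rats dextromethorphan hydrobromide monohydrate at 100 mg/kg, and CAF+DEX rats both at those doses. The labels give 5 rats per group, and 3 libraries per group were deposited. No label ties a library to a rat, so the tests measure the spread between these libraries, which may be partly technical. The study asked how liver microRNAs differ after each drug and after the combination.

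MicroRNAs of this family are guides of the silencing complex, which pair through the seed near their 5′ end with messenger RNAs and lower their translation and stability. The miR-34 genes are direct transcriptional targets of p53, the DNA damage response factor, and the family represses cell cycle and survival transcripts such as Cdk6, Ccnd1, Met and Bcl2. Mir34a is the broadly expressed member and in liver is known for its rise in fatty liver and its repression of Sirt1, whereas Mir34b, Mir34c and the miR-449 genes are best known from multiciliated epithelium and testis. None of these messenger RNAs was measured here.

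All 5 members matched a RefSeq entry (GRCr8) by symbol, and all 5 annotated hairpins have the length given in the deposited table. The 5′ arms are printed 5′ to 3′ because their shared seed, bases 2 to 8 in capitals, is what makes the genes a family.
rno-miR-34a-5p: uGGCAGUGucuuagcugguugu
rno-miR-449a-5p: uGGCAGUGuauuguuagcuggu
rno-miR-449c-5p: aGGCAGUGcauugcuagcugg
rno-miR-34c-5p: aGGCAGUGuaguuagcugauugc
rno-miR-34b-5p: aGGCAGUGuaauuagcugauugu
Of the 724 mature rat microRNAs in the RefSeq table, these 5 were the only ones with that seed. Aligned from the 5′ end without gaps, miR-34b-5p was identical to miR-34c-5p at 21 of 23 bases and differed by G11A and C23U, counted from 1 at the 5′ end with the base of miR-34c-5p first. By the same count miR-34a-5p was identical to miR-449a-5p at 15 of 22 bases but to miR-34c-5p at 11 of 22. Mir34b and Mir34c are thus a close pair in sequence as well as in position.
The 3′ arms of that pair are shown because they too share a seed and their first 10 bases.
rno-miR-34c-3p: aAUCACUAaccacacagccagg
rno-miR-34b-3p: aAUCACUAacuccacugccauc
The deposited values are per hairpin gene, so the arms were not measured separately.

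In the deposited annotation (rn7), Mir34a (ENSRNOG00000035623) lies on chromosome 5 from 160533002 to 160533103 on the plus strand. Mir34c (ENSRNOG00000035478, chromosome 8, 51409726 to 51409802) and Mir34b (ENSRNOG00000035561, chromosome 8, 51410244 to 51410327) lie 441 bases apart on the minus strand. Mir449c (ENSRNOG00000036435, chromosome 2, 44669179 to 44669277) and Mir449a (ENSRNOG00000035622, chromosome 2, 44670714 to 44670804) lie 1436 bases apart on the plus strand. RefSeq's GRCr8 annotation, used for names only, places Mir34a within the span of the lncRNA LOC103692514. It places Mir34b and Mir34c over the span of Hoatz with Btg4 as the next coding gene, and the miR-449 genes in the lncRNA LOC134485839 beside Mcidas, a regulator of multiciliated cells. Positions within exons or introns were not analysed here.

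Recovered depth was 2863572 to 3418568 reads per library. Values are FPKM (reads per kilobase of hairpin and 1000000 reads on the listed features) and put levels of different genes on 1 scale per length. Such levels also depend on the annotation and on hairpin length, which exceeds that of the sequenced mature arm. The endothelial marker Mir126a stood at only 20.2 to 67.7 FPKM, with a mean of 15.25 reads, and the reason was not tested. The table bears out a liver: Mir192, abundant in hepatocytes, averaged 1381305 FPKM. Markers of other cells were present at lower levels, with leukocyte markers summing to 170746 to 291122 FPKM and neuron markers to 26.0 to 55.7 FPKM over the libraries. In bulk tissue, fewer cells of a type and less RNA per cell cannot be told apart.

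Mir34a made up nearly all of the family. It held 96.6 to 98.3% of the family's FPKM in each library and ranked 54 to 71 by level among the 444 features. Its mean of 16737 FPKM over the 12 libraries was 68.5-fold that of Mir34c at 244 FPKM (90.3-fold in mean reads), and Mir34c was in turn 3.28-fold above Mir34b at 74.6 FPKM. Mir449a averaged 119 FPKM, between Mir34c and Mir34b. Mir449c gave 3 reads in all, 2 in Control library 4 and 1 in DEX library 4. It was above 0 in 2 of 12 libraries, fell below the minimum of 3 libraries for testing and is given no fold. The other 4 members were tested among 293 features.

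Precision follows from these levels. Mir34a rested on a mean of 5424 reads per library, where counting alone gives a coefficient of variation of 1.23 to 1.49%, against an observed 8.62 to 25.7% within groups. Mir34c rested on 60.1 reads, Mir449a on 34.5 and Mir34b on 20.0, with counting error of 11.6 to 16.1%, 14.5 to 20.6% and 19.6 to 27.7%. The observed spread within groups was 0.844 to 21.9% for Mir34c, 11.1 to 23.8% for Mir449a and 14.3 to 30.6% for Mir34b. For all 3 it exceeded the counting error in Control and fell below it in CAF+DEX. Fractions of a read occurred for Mir34c in 6 libraries, for Mir34b in 4 and for Mir34a and Mir449a in 1 each. Some reads were thus shared out between features, and the counts are uncertain to that extent. The values do not show which features shared them. In Control library 3 and CAF+DEX library 2 Mir34c had a fraction (84.5 and 61.5 reads) and Mir34b had whole reads (28 and 20). Reads need not be independent molecules, and these errors cover counting only.

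Mir34a stood at 16652, 25676 and 17058 FPKM in Control libraries 1, 3 and 4. In CAF libraries 1, 2 and 5 it stood at 13948, 14956 and 21042 FPKM. In DEX libraries 1, 2 and 4 it was at 16057, 15157 and 19487 FPKM, and in CAF+DEX libraries 1, 2 and 5 at 14828, 13497 and 12489.5 FPKM. A single high library, 3 in Control and 5 in CAF, set much of the spread in those groups, and the CAF+DEX libraries were the tightest. The group means ran from Control (19795 ± 5097 FPKM, SD, n = 3) through DEX (16900.2 ± 2285) and CAF (16649 ± 3838) to CAF+DEX (13605 ± 1173). Neighbours in that order overlapped in every case.

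Mir34c, the more abundant member of the clustered pair, stood at 348, 321 and 224 FPKM in Control libraries 1, 3 and 4. It was at 161, 150.4 and 192 FPKM in CAF libraries 1, 2 and 5. It was at 234, 281 and 289.6 FPKM in DEX libraries 1, 2 and 4 and at 244, 246 and 242 FPKM in CAF+DEX libraries 1, 2 and 5. The 3 CAF libraries were the lowest of the 12 for this gene. Means were 298 ± 65.3 FPKM in Control, 268 ± 29.9 in DEX, 244 ± 2.06 in CAF+DEX and 168 ± 21.8 in CAF (SD, n = 3 each). Control overlapped DEX and DEX overlapped CAF+DEX, while CAF lay apart from CAF+DEX. The CAF+DEX spread of 0.844% was below the 12.8% that counting alone gives, so those libraries lie closer together than their depth would make typical.

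Mir34b, the rarer clustered member, stood at 104, 97.5 and 55.6 FPKM in Control libraries 1, 3 and 4, and at 43.7, 42.1 and 69.4 FPKM in CAF libraries 1, 2 and 5. It stood at 80.9, 99.3 and 109.7 FPKM in DEX libraries 1, 2 and 4, and at 64.3, 73.2 and 54.9 FPKM in CAF+DEX libraries 1, 2 and 5. Control library 4 was low for both clustered genes and not for Mir34a. The order of means was DEX (96.6 ± 14.6 FPKM), Control (85.7 ± 26.2), CAF+DEX (64.2 ± 9.16) and CAF (51.7 ± 15.3), and all neighbours overlapped.

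Mir449a, from the other clustered locus, stood at 92.5, 148 and 142 FPKM in Control libraries 1, 3 and 4. It was at 99.8, 63.6 and 98.8 FPKM in CAF libraries 1, 2 and 5, and at 90.8, 112 and 94.8 FPKM in CAF+DEX libraries 1, 2 and 5. DEX libraries 1, 2 and 4 had 127, 159.6 and 201 FPKM. Means fell in the same order as for Mir34b, from DEX (162 ± 37.0 FPKM) through Control (127 ± 30.3) and CAF+DEX (99.1 ± 10.98) to CAF (87.4 ± 20.6), and all neighbours overlapped.

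**Figure D1:**
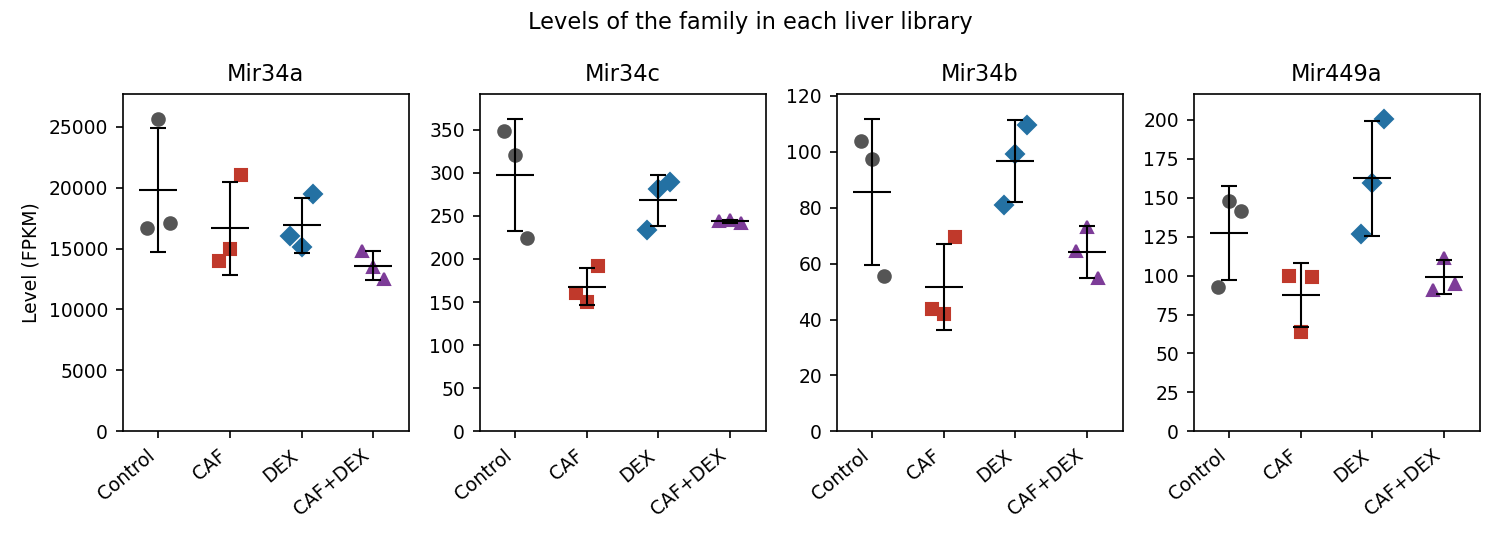
Level in FPKM (linear axis from 0) of the 4 tested members in each library of the Control, CAF, DEX and CAF+DEX groups, as points in library order, with the mean (line) and SD (bar, n = 3). The CAF libraries of Mir34c, at 150.4 to 192 FPKM, sit below all other libraries of that gene, whereas the groups of Mir34a overlap except CAF+DEX with Control and with DEX.

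Differences were tested with limma on log2(FPKM + 4.01) over all 293 features and 12 libraries, with Benjamini-Hochberg adjustment and a threshold of 0.05. No member passed in any of the 8 contrasts. In the 6 contrasts in which no feature passed, 13 to 30 of the 293 features had an unadjusted limma p under the threshold, and limma-voom on the recovered reads called none either. The 3 comparisons with Control share the Control libraries. CAF against Control, CAF+DEX against CAF and the interaction share the CAF libraries. The values are log2 differences with their standard errors and 95% confidence intervals.

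After caffeine alone, the clustered pair showed the family's largest differences from Control. Mir34c was at -0.79 on the log2 scale (SE 0.19, interval -1.21 to -0.38), 0.577-fold, with the third smallest p of all features and a limma adjusted p = 0.09. It passed without Control library 4, where the difference was -0.98 (limma adjusted p = 0.0311), and its adjusted p ran from 0.0311 to 0.429 over the alternatives. Mir34c was the 1 member whose CAF and Control libraries did not overlap, and 8.19% of all features had such a gap in the lower direction. Mir34b had -0.67 (SE 0.29, limma adjusted p = 0.361) and Mir449a -0.52 (SE 0.26, limma adjusted p = 0.443). Mir34a had -0.24 with an interval of -0.63 to 0.14 (SE 0.18, limma adjusted p = 0.684). Single libraries moved the Mir34a value: it was -0.04 without Control library 3, and leaving out CAF library 1 gave -0.13 and CAF library 5 gave -0.43. Over all features 0.683% passed, and 13.0% had an unadjusted p under the threshold, as had Mir34c and Mir34b.

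Leukocyte markers moved in the same comparison. All 6 were lower in CAF than in Control with a median of -0.50, and Mir142 and Mir146a were the only 2 features of the table that passed. No feature passed without Control library 1 or 3 or CAF library 2 or 5, and 10 passed without CAF library 1. Their summed level was 170746 to 209357 FPKM in CAF against 256370 to 291122 FPKM in Control, with none at 0. Skeletal and heart muscle markers summed to 61.5 to 120 FPKM against 145 to 343 FPKM. The 3 erythroid markers were lower with a median of -0.53, at 7502 to 14237 FPKM in CAF against 12584 to 15141 FPKM in Control, and none passed. Higher were 3 of 4 stellate and smooth muscle markers (median 0.15), the endothelial marker (0.19, SE 0.31) and the tested neuron marker (0.03, SE 0.28). Biliary markers were lower in 2 of 3 (median -0.05). The part of these cells in the Mir34c value was not tested. The summed hepatocyte markers overlapped, at 3758421 to 3962943 FPKM in CAF and 3712900.1 to 3983216 FPKM in Control.

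After dextromethorphan alone no member stood apart from Control. Mir34c had -0.13 (interval -0.55 to 0.28), Mir34a -0.21 (-0.60 to 0.18), Mir34b 0.20 (-0.42 to 0.83) and Mir449a 0.35 (-0.22 to 0.92). Every member's groups overlapped, and 0% of features passed. The Mir34a value was -0.0045 without Control library 3.

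After both drugs Mir34a had the largest difference of the members from Control, -0.51 (SE 0.18, interval -0.90 to -0.13, 0.7-fold, limma adjusted p = 0.351), and the tenth smallest p of all features. The 3 CAF+DEX libraries lay below the 3 Control libraries for Mir34a only, as for 7.51% of all features. Without Control library 3, its highest, Mir34a had -0.31. Mir34b had -0.36 (SE 0.29), Mir449a -0.33 (SE 0.26) and Mir34c -0.26 (SE 0.19), and their groups overlapped. Here too 0% of features passed. The 6 leukocyte markers were lower as well (median -0.24), as were the 3 erythroid markers (median -0.34). The 2 muscle markers averaging over 3 reads were higher, and 1 averaging 0.28 reads had -0.11. Lower too were 2 of 3 biliary markers (median -0.02), the endothelial marker (-0.21, SE 0.31) and the tested neuron marker (-0.38, SE 0.28). Over all features 52.2% were lower. Of the stellate and smooth muscle markers, 3 of 4 were higher. The part of these cells was not tested.

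Set against caffeine alone, Mir34c after the combination was at 0.53 (SE 0.19, interval 0.12 to 0.95, limma adjusted p = 0.88), with all CAF+DEX libraries above all CAF libraries, as for 3.41% of features. Mir34b had 0.32 (SE 0.29), Mir449a 0.20 (SE 0.26) and Mir34a -0.27 (SE 0.18). Of the markers of other cells, 6 of 6 leukocyte markers (median 0.19) and 3 of 3 erythroid markers (median 0.22) were higher, as Mir34c was. So were 2 of 2 muscle markers averaging over 3 reads (median 1.25), while 1 averaging 0.28 reads had -0.13. The endothelial marker (-0.40, SE 0.31) and the tested neuron marker (-0.41, SE 0.28) were lower. Also lower were 2 of 4 stellate and smooth muscle markers and 1 of 3 biliary markers. Set against dextromethorphan alone, Mir449a had -0.67 (SE 0.26, limma adjusted p = 0.537), Mir34b -0.56 (SE 0.29), Mir34a -0.31 (SE 0.18) and Mir34c -0.13 (SE 0.19). In that comparison CAF+DEX lay below DEX in every library for Mir449a, Mir34a and Mir34b, against 8.87% of all features. There 6 of 6 leukocyte markers (median -0.19) and 3 of 3 erythroid markers (median -0.23) were lower too. The tested neuron marker (-0.27, SE 0.28), 2 of 3 biliary markers and 1 of 2 muscle markers averaging over 3 reads were also lower. The endothelial marker (0.28, SE 0.31) and 3 of 4 stellate and smooth muscle markers were higher. Neither comparison had a call (0% of features each), and the part of these cells in either was not tested.

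Over both levels of dextromethorphan, the 6 libraries with caffeine averaged lower than the 6 without for each tested member. The caffeine main effect was -0.62 for Mir34b (SE 0.20, limma adjusted p = 0.159), -0.60 for Mir449a (SE 0.19, limma adjusted p = 0.125), -0.46 for Mir34c (SE 0.14, limma adjusted p = 0.11) and -0.28 for Mir34a (SE 0.13, limma adjusted p = 0.336). Each had an unadjusted limma p under the threshold, as had 14.7% of all features, while 0.683% passed after adjustment and 52.2% were lower. For no member did all 6 caffeine libraries lie below the other 6. The adjusted p for Mir34c ran from 0.0559 to 0.485 over the alternatives. The leukocyte markers were lower here as well, 6 of 6 with a median of -0.36, as were 3 of 3 erythroid markers (median -0.39). Muscle markers averaging over 3 reads were lower in 2 of 2 (median -0.52), and 1 averaging 0.28 reads had 0.01. Biliary markers were lower in 2 of 3, and the tested neuron marker had -0.12 (SE 0.20). Higher were the endothelial marker (0.24, SE 0.22), 3 of 4 stellate and smooth muscle markers and 6 of 7 hepatocyte markers. The part of these cells was not tested.

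The interaction, the caffeine difference with dextromethorphan minus that without it, was 0.66 for Mir34c (SE 0.27, interval 0.08 to 1.25, limma adjusted p = 0.835). It was 0.11 for Mir34b (SE 0.41), -0.06 for Mir34a (SE 0.25) and -0.15 for Mir449a (SE 0.37), and 0% of features passed. The interaction was also above 0 for 6 of 6 leukocyte markers (median 0.28) and 3 of 3 erythroid markers (median 0.26). Of muscle markers averaging over 3 reads, 2 of 2 were above 0 (median 1.01), and 1 averaging 0.28 reads had -0.01. The interaction was below 0 for 3 of 4 stellate and smooth muscle markers, 2 of 3 biliary markers and the tested neuron marker (-0.30, SE 0.39). The endothelial marker had 0.10 (SE 0.44). The part of these cells was not tested. The dextromethorphan main effect was -0.24 for Mir34a (SE 0.13), against 0.27 for Mir449a (SE 0.19), 0.26 for Mir34b (SE 0.20) and 0.20 for Mir34c (SE 0.14), again with 0% of features passing.

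**Figure D2:**
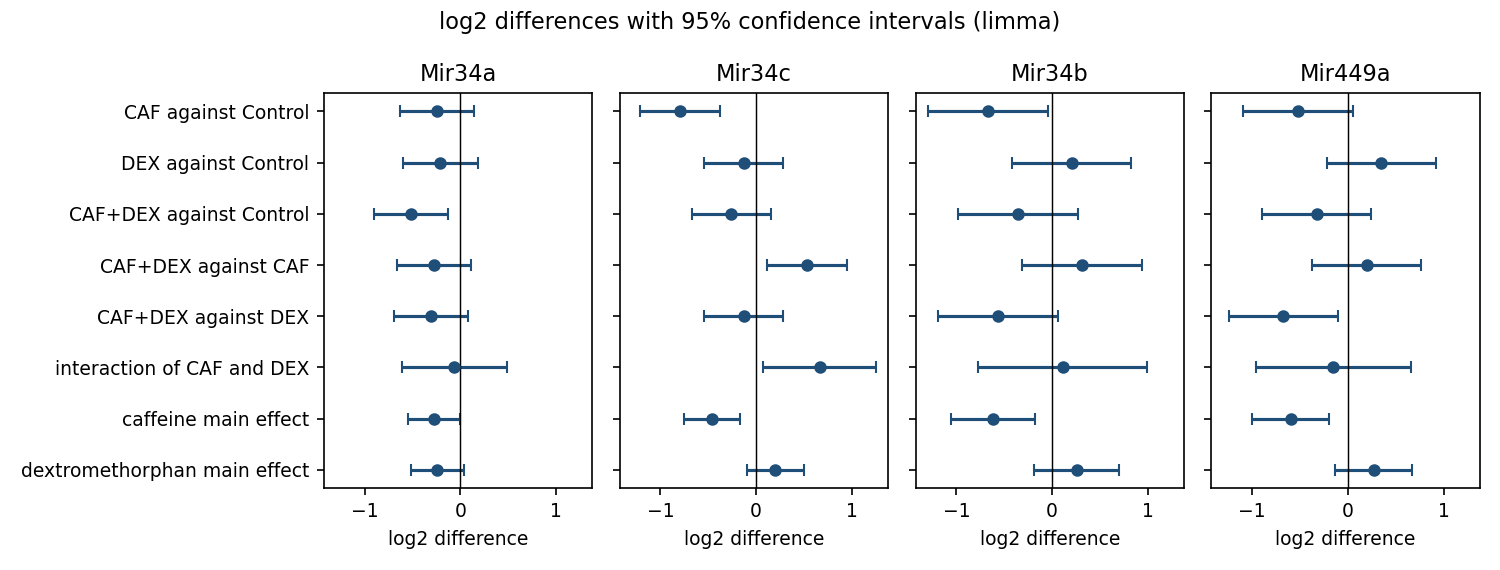
log2 differences (x axis) of the 4 tested members in the 8 contrasts (rows), as points with 95% confidence intervals from the limma fit of 12 libraries. The interval of Mir34c lies wholly below 0 for CAF against Control (-1.21 to -0.38) and wholly above 0 for CAF+DEX against CAF (0.12 to 0.95), before any adjustment for the number of features. Both contrasts use the same CAF libraries.

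The ratio of the clustered pair to Mir34a, taken within each library, does not depend on how libraries are scaled. Mir34b plus Mir34c came to 2.72, 1.63 and 1.64% of Mir34a in Control libraries 1, 3 and 4 and to 1.47, 1.29 and 1.24% in CAF libraries 1, 2 and 5. The ratio was 1.96, 2.51 and 2.05% in DEX libraries 1, 2 and 4 and 2.08, 2.36 and 2.37% in CAF+DEX libraries 1, 2 and 5. The 3 CAF libraries had the lowest ratios of the 12, and Control library 1 the highest. On the log2 scale CAF minus Control was -0.54 (SE 0.25), DEX minus Control 0.16 (SE 0.27) and CAF+DEX minus Control 0.23 (SE 0.25). Without Control library 1 the CAF value was -0.30, the DEX value 0.40 and the CAF+DEX value 0.47. Without Control library 3 the DEX value was 0.03 and the CAF+DEX value 0.10, and without Control library 4 they were 0.04 and 0.11. DEX minus Control was 0.05 without DEX library 2, 0.08 with Mir34c alone and 0.42 with Mir34b alone. The ratio is a description of genes chosen with earlier results known and carries no test.

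Within the pair, Mir34c was 2.64- to 4.40-fold above Mir34b in every library. The mean ratio was 3.56 ± 0.407 in Control, 3.34 ± 0.497 in CAF, 2.79 ± 0.131 in DEX and 3.85 ± 0.525 in CAF+DEX (SD, n = 3). DEX had the lowest mean, but its libraries overlapped with CAF library 5 at 2.77.

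**Figure D3:**
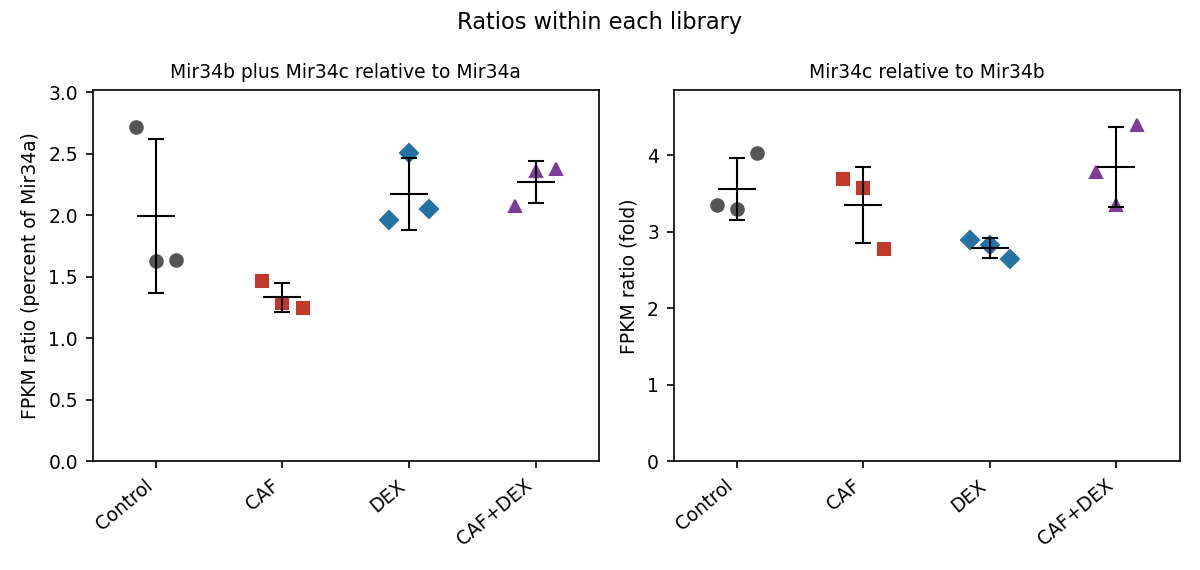
FPKM ratios within each library by group: Mir34b plus Mir34c as a percentage of Mir34a (left) and the fold of Mir34c over Mir34b (right), with points for libraries, lines for means and bars for SD (n = 3). The CAF libraries lie at 1.24 to 1.47% on the left, below the 1.63% of the lowest other library.

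Over the 12 libraries the log2 levels of Mir34c and Mir34b moved together. Pearson's r was 0.884 (permutation p = 0.00016, Benjamini-Hochberg adjusted over 6 pairs of members 0.00096) and Spearman's rho 0.853 (permutation p = 0.00082, adjusted 0.00492). With group means removed r was 0.94, and without the CAF libraries 1 and 2, the farthest from the median of Mir34c, it was 0.754. These genes share a locus and library and may share part reads, which a correlation over libraries cannot separate. Mir34a with Mir34c had r = 0.348 (permutation p = 0.266, adjusted 0.266) and rho 0.28 (permutation p = 0.379, adjusted 0.379), with r = 0.376 without Control library 3 and CAF library 5 and 0.462 within groups. Mir449a with Mir34b had r = 0.672 (permutation p = 0.0172, adjusted 0.0517) and rho 0.587 (permutation p = 0.0485, adjusted 0.146). It was 0.389 without DEX library 4 and CAF library 2 and 0.177 within groups, so that relation rests on those libraries and on differences between groups. Mir34a with Mir34b had r = 0.51 (permutation p = 0.0885, adjusted 0.133) and rho 0.524 (permutation p = 0.0841, adjusted 0.168). Their r was 0.556 without Control library 3 and CAF library 5 and 0.609 within groups. Mir449a had r = 0.441 with Mir34a and 0.56 with Mir34c, with adjusted permutation p of 0.181 and 0.114.

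**Figure D4:**
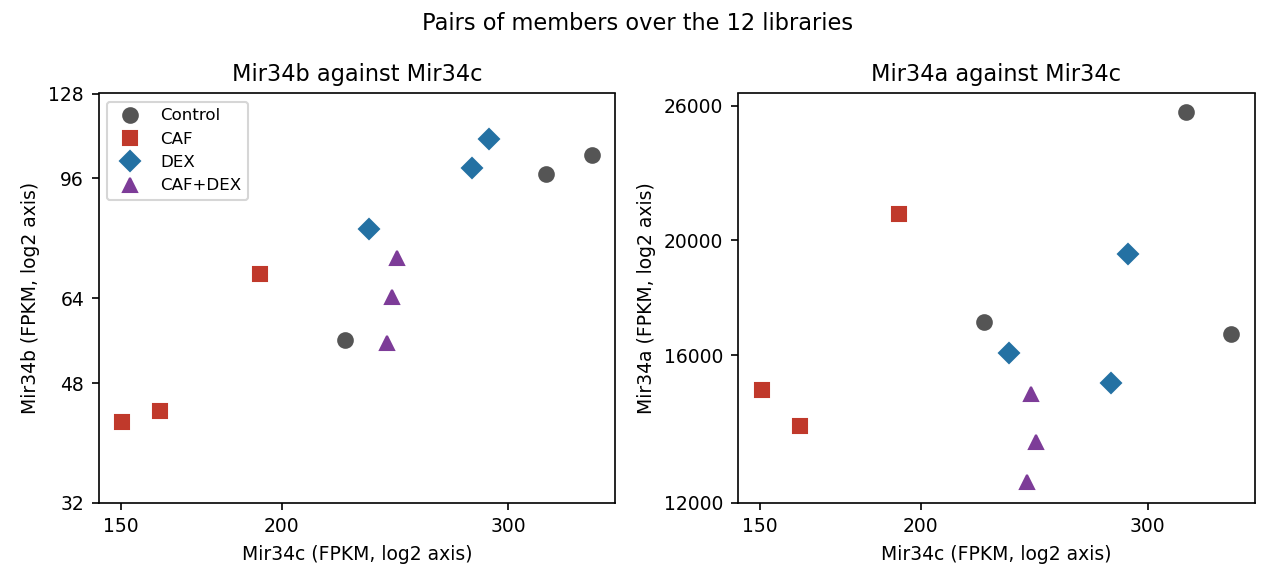
Levels of Mir34b (left) and Mir34a (right) against Mir34c in the 12 libraries, in FPKM on log2 axes, with 1 point per library and symbols for the groups. Mir34b rises with Mir34c (r = 0.884), while Mir34a spreads at any level of Mir34c (r = 0.348).

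Among 172 features outside the family with at least 20 reads on average, the log2 patterns most like that of Mir34c over the 12 libraries were those of Mir20b (r = 0.826), Mir187 (r = 0.798) and the leukocyte marker Mir142 (r = 0.716). For Mir34a they were Mir15b (r = 0.595), Mir140 (r = 0.582) and Mir187 (r = 0.552). Spearman's rho in these orders was 0.825, 0.72 and 0.699 for Mir34c and 0.601, 0.385 and 0.58 for Mir34a. The r values are the highest of 172, include differences between groups and are given without a test. In CAF against Control, Mir20b had -0.84 and Mir187 -0.74, and neither passed.

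Other microRNAs tied to p53 were read in CAF against Control from lists. Of 13 names of microRNAs that p53 induces or helps to process, among them the abundant hepatocyte genes Mir192 and Mir194-1, 11 genes were tested and 10 averaged over 3 reads. Of the 10, 4 were lower and 6 higher, with a median of 0.01, and none passed, against a median of 0.00235 over all features. This list overlaps the hepatocyte, stellate and smooth muscle and biliary markers used above, and it counts the copies of Mir194 separately. Mir16 had -0.16 (SE 0.07, limma adjusted p = 0.361) and Mir192 0.01 (SE 0.06). Among 8 genes, made up of the miR-17-92 cluster, which p53 represses, and copies of its genes, none was lower, none passed, and the median was 0.15. Mir19a had 0.21 (SE 0.09, limma adjusted p = 0.361), and Mir19b1 and Mir19b2, copies with the same mature sequence that count as 1 signal, had 0.18 each (SE 0.08). Of 4 genes that target p53 transcripts, 3 averaged over 3 reads, with values of -0.08 to 0.05. No gene of these 3 lists passed in any of the other 7 contrasts. The induced genes had medians of -0.02 to 0.03 in them. Of the 10, 3 were lower for the caffeine main effect, 6 in CAF+DEX against Control and 7 for the interaction. The genes of the repressed list, copies included, had medians of 0.11 in DEX and 0.16 in CAF+DEX, each against Control, with 7 of 8 higher in both.

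**Figure D5:**
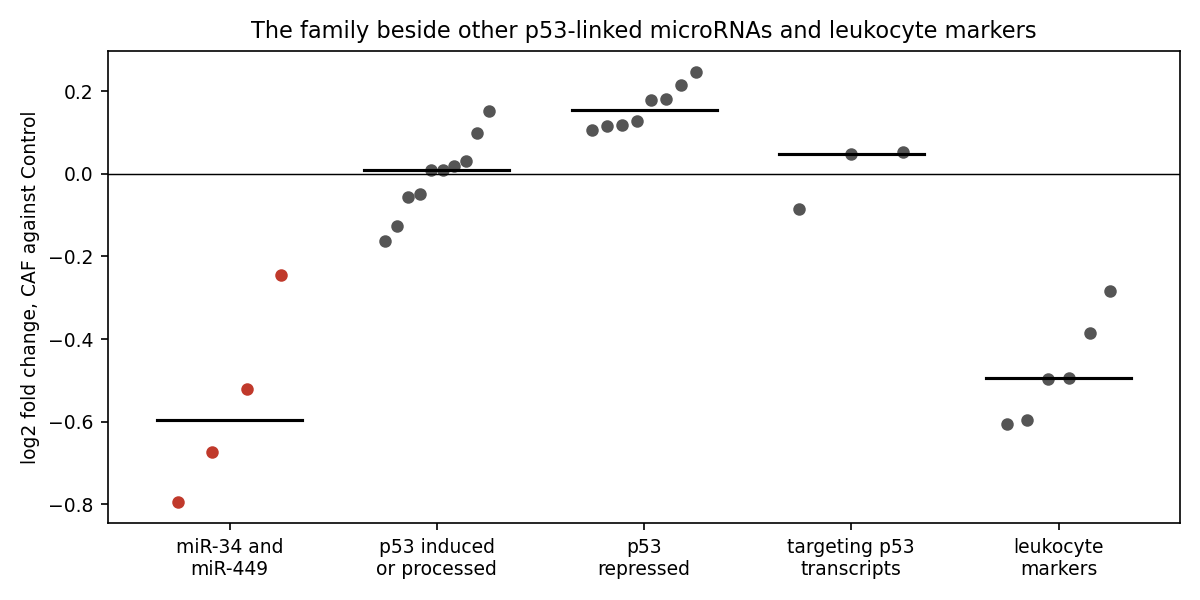
log2 fold change in CAF against Control (y axis) of the 4 tested family members (red) and of 3 lists of other p53-linked microRNAs and the leukocyte markers (grey), with 1 point per gene averaging over 3 reads and the median as a line. The p53-induced genes lie around 0 with a median of 0.01, and the leukocyte markers lie lower with a median of -0.50.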

How the data were processed

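Small RNA of liver was sequenced in 12 libraries, 3 per group, with a QIAseq kit that adds molecular indices (per the labels' protocols). No source used here says if they were collapsed. The authors deposited FPKM per annotated gene on rn7. The tools, per the submitters' processing notes, were cutadapt 3.7, STAR 2.7.11b and featureCounts of Subread 2.0.6; their parameters are not given. FPKM times length in kilobases, the other deposited value, summed to 1000000 in each library, so scaling was to reads on listed features. Reads were recovered as multiples of 0.01 read, with whole reads for 50.5 to 58.3% of features above 0, so the main test was on FPKM and limma-voom on these reads was an alternative.

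The 293 of 444 features above 0 in at least 3 libraries were tested with limma-trend (limma 3.58.1, R 4.3.3) on log2(FPKM + 4.01), the 10th percentile of tested values above 0, which understates the change of rare features. The fit had 4 group means and 8 contrasts, with Benjamini-Hochberg adjustment over the 293 features, and was tested on simulated data. Table columns were matched to groups, not to sample titles, and their numbers serve as library names. Members, lists and contrasts were chosen with earlier results of these data known. Named genes are all members, the 4 of the p53 lists with the smallest p in CAF against Control, the 3 features most like Mir34a and Mir34c in pattern, and Mir192. Mir194-1, Mir142 and Mir146a were named after their values were seen. Correlations used 100000 permutations. The library numbers matched no sample title, so no pairing was assumed. Alternatives were other pseudocounts, filters and scalings, limma-voom, fits of the compared groups only and leaving out each library.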

Additional observations from a re-analysis of the deposited data

How the results depend on the processing

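Of 660 recalculations of the members' 32 log2 differences, 642 kept their direction and their side of the threshold, 17 changed sign and 1 passed the threshold (Mir34c in CAF against Control without Control library 4). With quantile normalization Mir34c in CAF+DEX against DEX became 0.0503 and the interaction of Mir34a 0.0050. Those under the replicate block are given last, and the others came from leaving out 1 library: the interaction ran from -0.27 to 0.12 for Mir34a, from -0.0454 to 0.38 for Mir34b and from -0.36 to 0.0564 for Mir449a, Mir34b in DEX against Control from -0.0669 to 0.36, and Mir449a in CAF+DEX against CAF from -0.0083 to 0.30.

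Counts of features called varied with the processing. In CAF against Control the 2 calls became 0 with no filter, 4 with quantile normalization and 0 in a fit of only the groups compared, and ran from 0 (without Control library 1 or 3, or CAF library 2 or 5) to 10 (without CAF library 1) when 1 library was left out, with 5 without Control library 4, 4 without CAF+DEX library 1 and 1 without DEX library 2. In CAF+DEX against Control the 0 calls became 2 with the larger pseudocount, 2 with a mean of at least 10 reads and 1 with quantile normalization. In CAF+DEX against DEX quantile normalization gave 1. For the caffeine main effect the 2 calls became 5 with the larger pseudocount, 10 with a mean of at least 10 reads, 5 with quantile normalization, 11 with median-of-ratios scaling and 4 with limma-voom, and ran from 1 (without Control library 3 or CAF library 2) to 10 (without CAF library 1), with 8 and 6 without CAF+DEX libraries 1 and 2. That range was 0 to 1 in DEX against Control, in CAF+DEX against DEX and for the interaction. With 1 library left out, the log2 ratio of the pair to Mir34a was -0.67 to -0.30 for CAF minus Control, 0.03 to 0.40 for DEX minus Control and 0.10 to 0.47 for the combination minus Control. Median-of-ratios scaling moved the median of all features by at most 0.02. The numbers in the column names matched no sample titles and no label says that they pair libraries. Of 11 pairs of same-numbered libraries 1 had deviations from the group means that correlated above 0.1 (r from -0.126 to 0.105), and 0 of 11 libraries correlated best with their own number. A fit with that number as a replicate block, added after seeing the data, gave 0 calls in CAF against Control, 1 in DEX against Control and 0 for the caffeine main effect. In it Mir34a became 0.0196 in CAF and 0.0467 in DEX, and Mir449a 0.0212 in the combination, each against Control.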
